A study of Mus musculus with 18 samples.

Results

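The genes described here are the cytosolic ribosomal protein genes, the Rpl, Rplp, Rps and Rpsa genes whose products are built into the cytoplasmic ribosome. They were taken by name among the protein-coding genes of the GENCODE annotation, without the Rps6k kinases, which gave 83 of the 47643 genes in the tables: 52 of the large subunit and 31 of the small subunit. Of the 83 genes, 79 were tested, having passed 1 CPM (the counts of a gene scaled to the depth of its library) in 3 libraries or more. The other 4 were Rpl3l, Rpl10l, Rpl24 and Rpl39l.

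RNA was sequenced from embryonic dorsal root ganglion (eDRG) spot cultures, in which dissociated e13.5 ganglia of CD-1 mice are plated as a drop from which axons grow outward. All cultures received the mitotic inhibitor FDU. Uninjured controls were collected at DIV7, and in the other cultures the axons had been cut with a blade 1, 3, 8, 16 or 24 h before collection (HPI). Each of the 6 groups had 3 replicates, 18 libraries in all, made from total RNA after rRNA depletion. The labels give DIV7 as the day of collection for every group and the study's methods give it as the day of the cut, so time in culture and time after injury cannot be told apart. Nothing in the labels ties a replicate to a litter or a culture, so the p-values measure the spread between these libraries, which may be partly technical.

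Ribosomal proteins are needed in nearly equal amounts, and a proliferating cell spends much of its transcription and translation on them. Their mRNAs share a start signal, the 5′ terminal oligopyrimidine (TOP) motif, a C followed by further pyrimidines at the cap, through which the mTORC1 kinase and the protein Larp1 set how well they are translated. In sensory neurons these mRNAs are also found in axons, where ribosomal proteins can be made locally. A few family members have other roles: Rpl5 and Rpl11 bind Mdm2 and so hold back the degradation of p53, and several genes have a closely related copy with its own regulation.

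The start sites of 6 genes named in the results below are printed here, 30 bases each, to show the TOP signal and where it is interrupted. Rps6, whose product is the substrate of S6 kinase, and Rps27 have a pyrimidine stretch across the start, Rps27l and Rpl22l1 are related copies of Rps27 and Rpl22, Rpl38 rose between 8 and 16HPI, and Rpl35a differed between replicate numbers. The sequences are RefSeq's on GRCm38.p6, read 5′ to 3′ on the strand of the gene. The annotated start is the first base after the leading 10, and capitals mark the longest stretch of C and T that begins with a C within 3 bases of it.
Rps6: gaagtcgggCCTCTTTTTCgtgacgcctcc
Rpl38: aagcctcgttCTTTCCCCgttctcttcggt
Rps27: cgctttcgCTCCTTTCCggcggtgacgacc
Rps27l: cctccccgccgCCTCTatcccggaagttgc
Rpl22l1: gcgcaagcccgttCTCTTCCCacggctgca
Rpl35a: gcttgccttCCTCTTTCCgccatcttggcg

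These windows lie at chr4:86857348-86857377 on the minus strand for Rps6, chr11:114668570-114668599 on the plus strand for Rpl38, chr3:90213629-90213658 on the minus strand for Rps27, chr9:66946076-66946105 on the plus strand for Rps27l, chr3:28805498-28805527 on the plus strand for Rpl22l1 and chr16:33056472-33056501 on the plus strand for Rpl35a. The marked stretch was 10 bases in Rps6, 9 in Rps27 and Rpl35a, 8 in Rpl38 and Rpl22l1, and 5 in Rps27l, and in Rpl35a, Rpl38 and Rpl22l1 further pyrimidines stand directly before the capitals. In Rpl22l1 the marked stretch began 3 bases past the annotated start. Rps27l has 2 listed starts and Rpl35a 3, of which 1 each is shown.

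Of the 83 genes, 63 had an entry in the RefSeq promoter table. A run of at least 5 pyrimidines beginning with C stood exactly at the start in 13 of these 63 (20.6%), against 3.01% of the 27025 genes in the table. When 3 bases on either side of the start were allowed, a width chosen after the exact count was seen, 25 of 63 (39.7%) had it, against 13.51% of all genes. The letters AAGATGG, the core of the site of the factor YY1, were found on either strand from 250 bases before to 50 bases after the start in 10 of 63 (15.9%) against 7.28%, and the ETS-family letters CCGGAAG in 25 of 63 (39.7%) against 9.93%. These are matches of letters and were not measured as sites.

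Total counts on genes ran from 9478891 to 23082327 per library, with 8HPI replicate 2 the lowest. The sensory neuron markers were abundant in every library, with a list of 7 that includes Avil, Calca, Tubb3, Pou4f1, Isl1 and Prph together at 7688 to 9704 CPM, while 9 markers of satellite glia and Schwann cells summed to 57.6 to 137 CPM. Endothelial, fibroblast and neural crest lists each summed to at most 9.98 CPM. The library 16HPI replicate 1 stood apart, with 4.59% of counts on residual rRNA genes against 0.69 to 1.69% in the others, and counts of called genes at 16HPI are therefore also given without it. In bulk RNA, fewer cells of a type and less RNA per cell cannot be told apart.

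Together the 83 genes made up 1.21 to 1.49% of the counts on nuclear protein-coding genes. After normalization by edgeR's trimmed mean of M values (TMM), their summed level was 10765, 10522 and 9509 CPM in control replicates 1, 2 and 3. At 24HPI it was 10751, 11231 and 10348 CPM, and the lowest group was 8HPI, with 9886.5, 10732 and 9771 CPM. By this summed level the injured groups overlapped control at every time. Relative to the control of the same replicate number, the injured libraries averaged 0.99 ± 0.06 (SD, n = 3) at 8HPI and 1.05 ± 0.05 at both 16 and 24HPI. The earlier groups averaged 1.04, with an SD of 0.04 at 1HPI and 0.06 at 3HPI. As a share of nuclear protein-coding counts the late groups did not overlap control. Control libraries lay at 1.207 to 1.328%, 16HPI at 1.333 to 1.495% and 24HPI at 1.374 to 1.457%. By that share the groups at 1, 3 and 8HPI overlapped control.

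**Figure D1:**
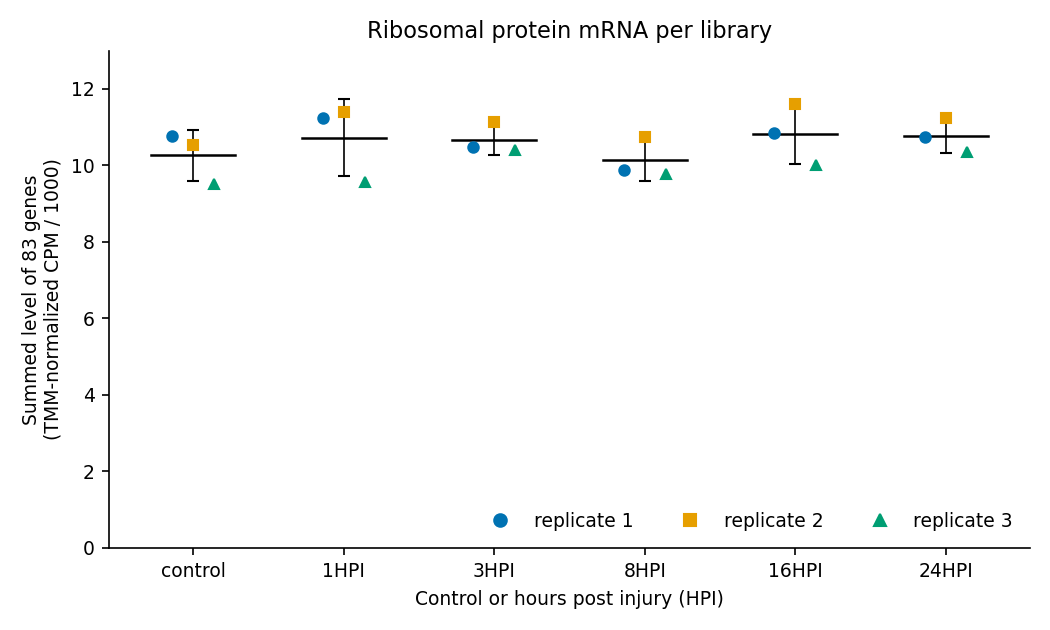
The summed level of the 83 ribosomal protein genes in each of the 18 libraries, in TMM-normalized CPM divided by 1000, by group; symbols show the replicate number, the long bar the group mean and the thin bar the SD (n = 3). All libraries lie between 9509 and 11599 CPM, and replicate 3 is the lowest of its group in every group.

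The libraries also differed by replicate number. Replicate 3 libraries had a median summed level of 9895 CPM, against 10758 CPM for replicate 1 and 11188 CPM for replicate 2, over the 6 groups. The summed counts of large over small subunit genes had a median of 1.48 in replicates 1 and 2 and lay at 1.52 to 1.56 in replicate 3, above every other library, whereas its mean was 1.49 at 8, 16 and 24HPI alike. Replicate number is a term of the model used for all fold changes below.

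Levels of different genes are compared here per length, as RPKM, counts scaled to exon length and to the counts on genes, in the 3 control libraries. The median of the 79 tested genes was 53.0 RPKM, and 64 of them were above the ninth decile of all tested protein-coding genes, 31.8 RPKM. The highest was Rplp1, an acidic protein of the ribosomal stalk that recruits elongation factors, at 512 ± 30.2 RPKM (SD, n = 3), then Rpl38 at 358 ± 12.6 and Rpl41, which encodes a very short peptide of the large subunit, at 344 ± 53.9. The last 2 do not differ beyond their spread. The lowest were Rpl7l1 at 7.65 ± 0.29, Rpl35a at 7.02 ± 2.92 and Rpl22l1 at 6.04 ± 1.03 RPKM, and the spread of Rpl35a covers both of its neighbours. The levels and their order depend on the length used. With the longest transcript in place of all exons, the median was 106 RPKM and Rpl41, at 578 ± 90.5 RPKM, stood above Rplp1, still at 512 RPKM, and over its coding transcript Rpl35a was at 47.7 RPKM.

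These levels carry a further limit. Ribosomal protein genes have many processed pseudogenes, 268 of them named after one of the 83, and reads that align in several places were set apart by the authors' counter. In the annotation, a median of 31.7% of the read-length exon windows of a tested gene were also present in another gene, and this share exceeded 80% for Rpl5, Rpl10, Rpl35, Rpl36a, Rps6 and Rps12. Across the 79 genes this share and the control level per length of coding transcript had a Spearman rho of 0.03, given as a description. A value for these genes counts the reads that were unique, and its level may be too low.

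**Figure D2:**
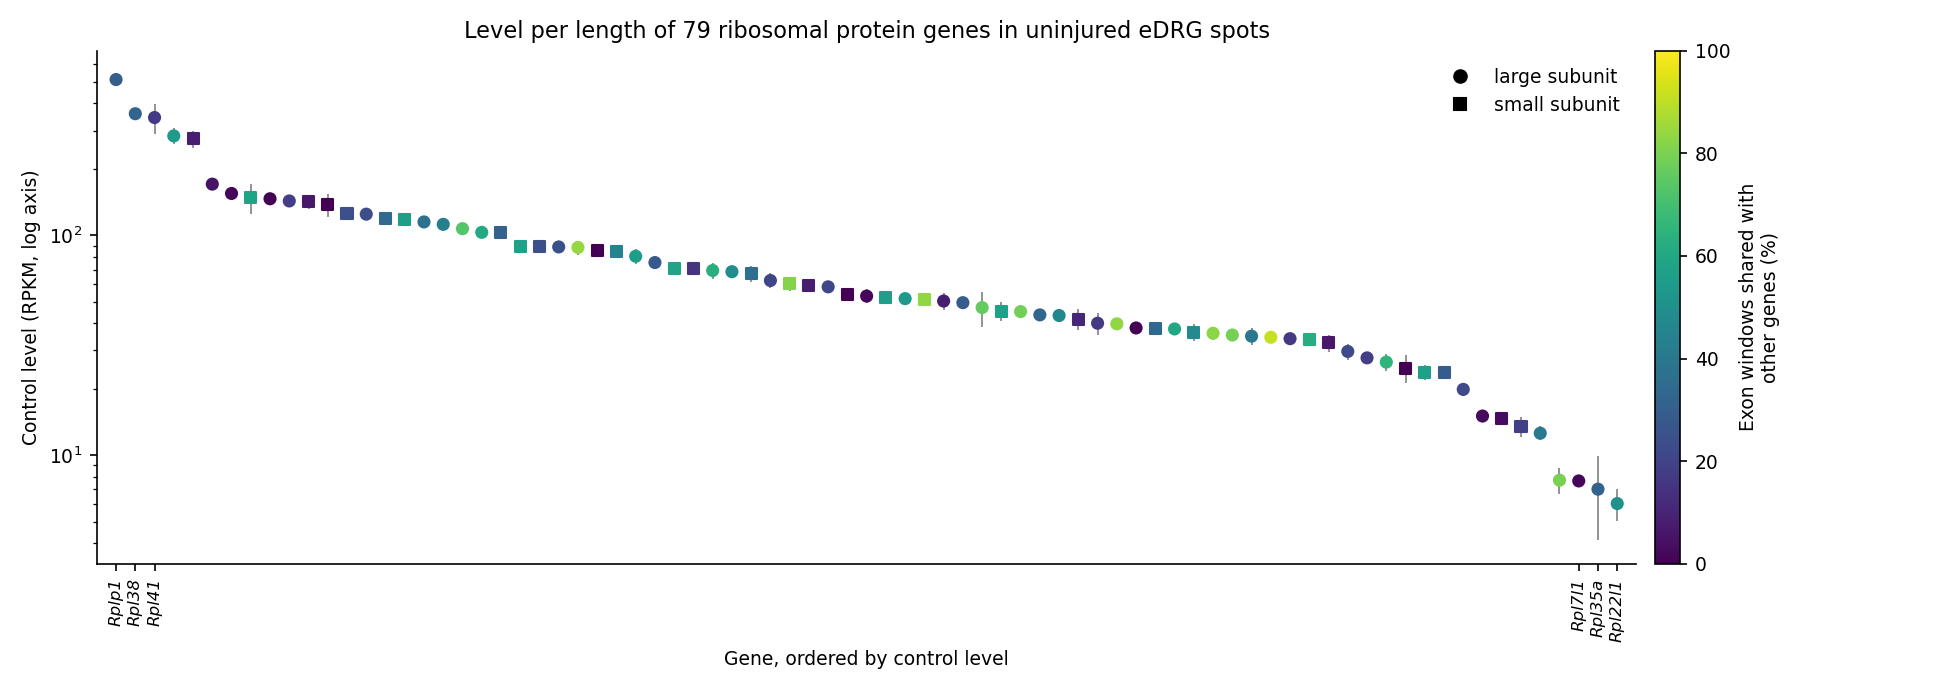
Control level of the 79 tested ribosomal protein genes in RPKM on a log axis, ordered from high to low; points are means and bars SD of 3 control libraries, circles large and squares small subunit, and colour the percentage of exon windows shared with other genes, with the 3 highest and 3 lowest genes named. Over all exons, levels run from 512 RPKM for Rplp1 to 6.04 RPKM for Rpl22l1.

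Of the untested genes, 3 are related copies known from other tissues. Rpl10l, a retrocopy used in male germ cells, had 0 counts in all 18 libraries, Rpl39l had at most 2 counts in a library and Rpl3l, the copy used in heart and skeletal muscle, at most 3. Rpl24, a core protein of the large subunit, had between 1 and 8 counts per library. For Rpl24, 47.0% of the exon length is overlapped by another annotated gene on the same strand and 80.1% of windows are shared, so its low count may not be its level.

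The question asked of each time point was whether axotomy changed the mRNA of the ribosomal proteins. No gene of the family passed 2-fold in any of the 7 comparisons made, and the largest change was that of Rpl22l1, which fell by 0.46 on the log2 scale at 16HPI. Of the 79 genes, 16 passed an adjusted p of 0.05 in at least one comparison and 63 in none, by edgeR's quasi-likelihood test, adjusted by Benjamini-Hochberg over every gene tested. For 75 of the 79, every log2 fold change against control lay within 0.25 of zero. At 24HPI the 95% interval lay within 0.5 of zero on the log2 scale, that is 1.41-fold, for 77 of the 79 genes, against 71.7% of all genes. The median standard error (SE) there was 0.058 for the 79 genes and 0.087 for all genes. A smaller SE narrows the interval, so these shares do not compare the size of change alone. The 5 comparisons with control share the same 3 control libraries.

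At 1HPI and 3HPI no ribosomal protein gene passed the test, where 0.276% of all genes (0.0944% higher, 0.182% lower) and 0.189% (0.0436% higher, 0.145% lower) did. At an unadjusted p under 0.05 there were 7 and 13 of 79, against 12.8% and 14.5% of all genes. At 8HPI 1 gene fell and none rose (1.27%), where 7.68% of all genes passed, 3.78% higher and 3.9% lower. At 16HPI 3 rose and 1 fell (5.06%), where 22.2% passed, 10.7% higher and 11.5% lower. At 24HPI 7 rose and none fell (8.86%), where 15% passed, 5.99% higher and 9.03% lower. From 8 to 16HPI 8 rose and none fell (10.1%), where 15.2% passed, 7.3% higher and 7.86% lower. From 16 to 24HPI 1 fell and none rose (1.27%), where 9.82% passed, 3.59% higher and 6.22% lower. Changes past both the test and 2-fold were found in 0.029, 0.029, 0.537, 1.49, 0.821, 0.937 and 0.508% of all genes in the 7 comparisons in that order.

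The calls turned on single libraries. Leaving out a library can change how many of all genes pass. The shares of all genes in these refits are not given here, so the counts describe the calls alone. At 8HPI no gene fell without control replicate 2 or 3 or 8HPI replicate 1 or 2, and 2 fell without 8HPI replicate 3. At 16HPI 8 rose without control replicate 1, and none rose without control replicate 2 or 3 or 16HPI replicate 2. At 24HPI 11 rose without control replicate 1, 3 without control replicate 2 or 3 or 24HPI replicate 3, and 4 without 24HPI replicate 1. From 8 to 16HPI 1 rose without 8HPI replicate 1 and 4 without 8HPI replicate 2 or 16HPI replicate 2. Without 16HPI replicate 1, the library rich in rRNA, 2 genes rose and none fell at 16HPI, 3 rose from 8 to 16HPI and none fell from 16 to 24HPI. Without the replicate block, the term for replicate number, no gene passed in any comparison.

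**Figure D3:**
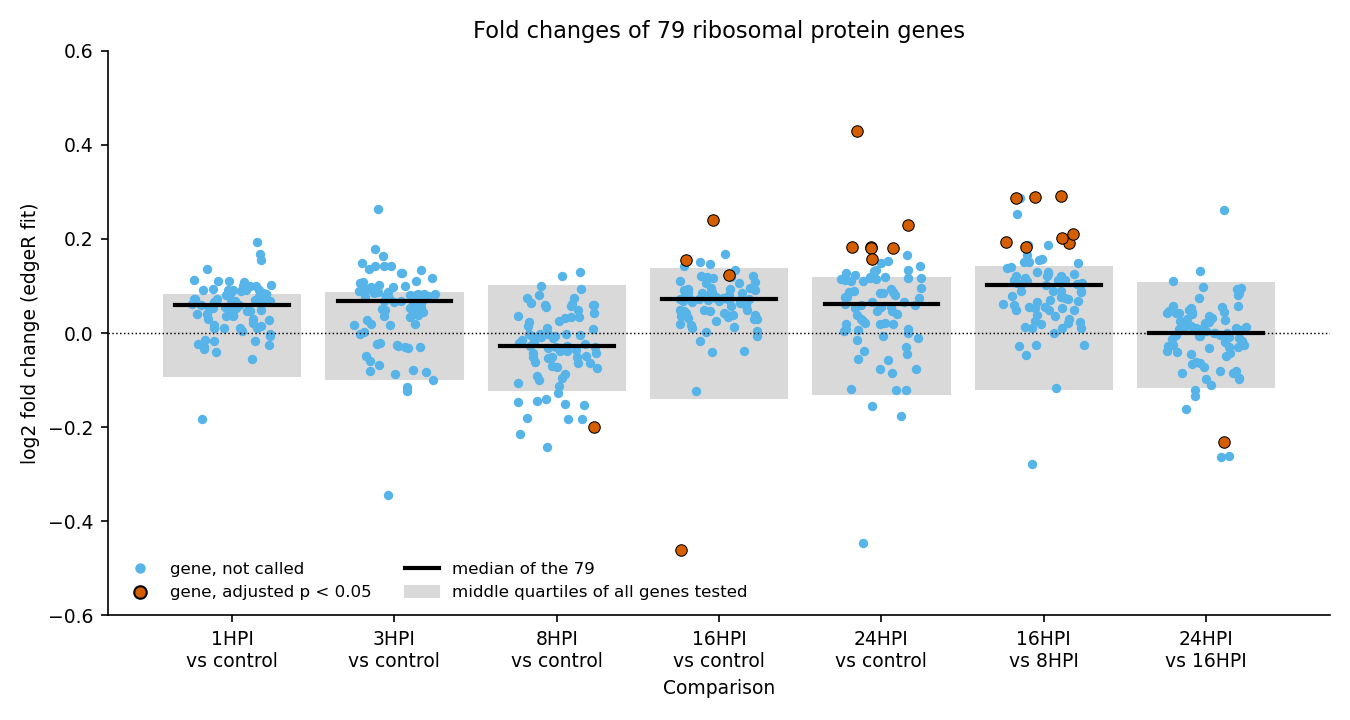
The log2 fold change from the edgeR fit of each of the 79 tested ribosomal protein genes in 7 comparisons; orange points have an adjusted p under 0.05, black bars are medians of the 79 genes and grey boxes span the quartiles of all genes tested. The medians lie between -0.03 at 8HPI and 0.10 from 8 to 16HPI.

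As a group the genes were displaced a little from zero. Their log2 differences from control had medians of 0.06, 0.07, -0.03, 0.07 and 0.06 in order of time, and of 0.10 from 8 to 16HPI, while the median of all genes was within 0.01 of zero in each. Values above zero were found in 73 of 79 genes at 16HPI and from 8 to 16HPI, in 62 at 24HPI, in 25 at 8HPI, in 67 at 1HPI, in 60 at 3HPI and in 38 from 16 to 24HPI, against 49.5, 49.5, 50.4, 49.7, 50.7, 50 and 51.2% of all genes in the same order. Without control replicate 1 the 8HPI median was 0.02 and without 8HPI replicate 1 it was 0.01. The 204 other protein-coding genes with under 1000 bases of exon had medians of 0.06, 0.07, -0.03, 0.03 and 0.05 at the 5 times and 0.08 from 8 to 16HPI. Those 204 genes were not matched to the family by length. Most of the 79 genes have more exon than that, and their lengths ran from 383 bases in Rpl36 to 6270 in Rps15a. With offsets for GC content and length and the replicate block, the family's medians were 0.01, 0.02, -0.05, 0.02 and -0.01, and 0.05 from 8 to 16HPI. The part that length and GC content take beyond these values was not tested.

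The subunits were also taken apart. At 16HPI the median log2 fold change was 0.06 for the 48 tested large subunit genes and 0.07 for the 31 small subunit genes, and at 24HPI 0.05 and 0.09. From 8 to 16HPI, 5 large subunit (10.4%) and 3 small subunit genes (9.68%) rose, where 15.2% of all genes passed, 7.3% higher. Whether the subunits differed was not tested.

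The largest rise was that of Rps27l, a related copy of Rps27 and a known target of p53. Its level was 20.7, 23.9 and 17.0 CPM in control replicates 1, 2 and 3 and 27.8, 28.7 and 25.7 CPM at 24HPI. All 3 injured libraries were above every control. The log2 fold change was 0.43 ± 0.09 (SE), with a 95% interval of 0.24 to 0.62 and an adjusted p of 0.00266 by edgeR's quasi-likelihood test. The rise passed with any single library left out, at 0.34 to 0.51, and with GC and length offsets it was 0.30, with an adjusted p of 0.0275 in the same edgeR test. At 1, 3, 8 and 16HPI the values were 0.19, 0.08, 0.08 and 0.17 and did not pass, and the step from 16 to 24HPI, 0.26, had an adjusted p of 0.0717 by edgeR's quasi-likelihood test. None of its exon windows is shared with another gene.

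Rps27 itself, a zinc finger protein of the small subunit, was at 79.9, 71.1 and 71.7 CPM in control and 82.5, 84.8 and 82.2 CPM at 24HPI. Its log2 difference of 0.17 had an adjusted p of 0.0757 by edgeR's quasi-likelihood test. The counts of Rps27l were 27.7 ± 5.17% of those of Rps27 in control (SD, n = 3) and 32.9 ± 1.42% at 24HPI, with control replicate 2 at 33.6%, inside the range of the 24HPI libraries. For Rps27 57.8% of windows are shared with other genes, so this ratio may be too high. The difference between the genes of the pair was not tested.

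Rpl22l1 was the gene that fell most. It is the related copy of Rpl22, an RNA-binding protein of the large subunit that is known to repress it. Control replicates 1, 2 and 3 had 14.9, 11.4 and 10.1 CPM and the 16HPI libraries 9.47, 7.54 and 9.36 CPM, below every control. The log2 fold change was -0.46 ± 0.16 (SE), with an adjusted p of 0.0389 by edgeR's quasi-likelihood test. At 24HPI the levels were 8.90, 9.97 and 7.88 CPM, again below every control, and -0.45 ± 0.15 had an adjusted p of 0.0538 in the same edgeR test. At 1, 3 and 8HPI the differences were -0.04, 0.02 and -0.18. Of its exon windows, 50.4% are shared with other genes.

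The call for Rpl22l1 at 16HPI did not hold when control replicate 1 (-0.33) or 3 (-0.49) or 16HPI replicate 1 (-0.45) or 2 (-0.29) was left out. Rpl22 was between 105 and 127 CPM in all 18 libraries and passed in no comparison, with log2 fold changes against control of 0.03 to 0.10. The counts of Rpl22l1 were 10.9 ± 1.74% of those of Rpl22 in control, 7.70 ± 0.77% at 16HPI and 7.67 ± 1.44% at 24HPI (SD, n = 3). Windows are shared with other genes for Rpl22l1 (50.4%) and not for Rpl22, so this ratio may be too low. It was not tested on its own.

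The other measured copies were expressed beside their usual gene. Rpl7l1 stood at 11.4 to 14.1% of Rpl7 and Rpl36al at 33.8 to 46.9% of Rpl36a over the 18 libraries, and neither copy passed in any comparison. For Rpl7 27.7% of windows are shared and for Rpl36a 83.6%, so both ratios may be too high. Rpl39, at 66.5 to 89.5 CPM, had next to no counts of Rpl39l beside it.

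Rpl9 and Rpl7, both RNA-binding proteins of the large subunit, were the genes that rose at both late times. Rpl9 was at 174, 160 and 135 CPM in control and 187, 189 and 173 CPM at 24HPI. The groups overlapped, because control replicate 1 lay above 24HPI replicate 3, but within each replicate number the injured library was higher. The log2 fold change was 0.16 ± 0.05 (SE) at 16HPI and 0.23 ± 0.05 at 24HPI, with adjusted p-values of 0.0352 and 0.00429 by edgeR's quasi-likelihood test. Values at 1, 3 and 8HPI were 0.17, 0.16 and 0.13 and did not pass. At 24HPI the call held with each library left out, at 0.17 to 0.28.

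Rpl7 was at 213, 206 and 193 CPM in control, 221, 222 and 222 CPM at 16HPI and 236, 231 and 226 CPM at 24HPI. Neither injured group overlapped control. The log2 fold change was 0.12 ± 0.04 (SE) at 16HPI and 0.18 ± 0.04 at 24HPI, with adjusted p-values of 0.0456 and 0.00763 by edgeR's quasi-likelihood test. With GC and length offsets they were 0.06 and 0.10 and did not pass. Of 17 alternatives, with single libraries left out or other settings, the call for Rpl7 held in 5 at 16HPI and in 15 at 24HPI. Both 16HPI calls were lost whenever a 16HPI library, control replicate 2 or control replicate 3 was left out, with values of 0.13 to 0.16 for Rpl9 and 0.10 to 0.15 for Rpl7.

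Rps27a, which encodes ubiquitin fused to a small subunit protein, was at 71.2, 68.5 and 60.3 CPM in control and 76.2, 96.6 and 65.6 CPM at 16HPI. Replicate 2 was far above the other 16HPI libraries, and the groups overlapped. On the log2 scale the difference was 0.24 ± 0.08 (SE), with an adjusted p of 0.0264 by edgeR's quasi-likelihood test. Without 16HPI replicate 2 it was 0.14, without control replicate 2 it was 0.19 and without control replicate 3 it was 0.24, and each time the call was lost. With GC and length offsets it was 0.18 and was also lost. Rps27a shares 62.4% of its exon windows with other genes. At 3HPI its 3 libraries were all above control, at 75.7, 83.9 and 80.6 CPM, and the difference of 0.26 ± 0.08 had an adjusted p of 0.114 in the same edgeR test.

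**Figure D4:**
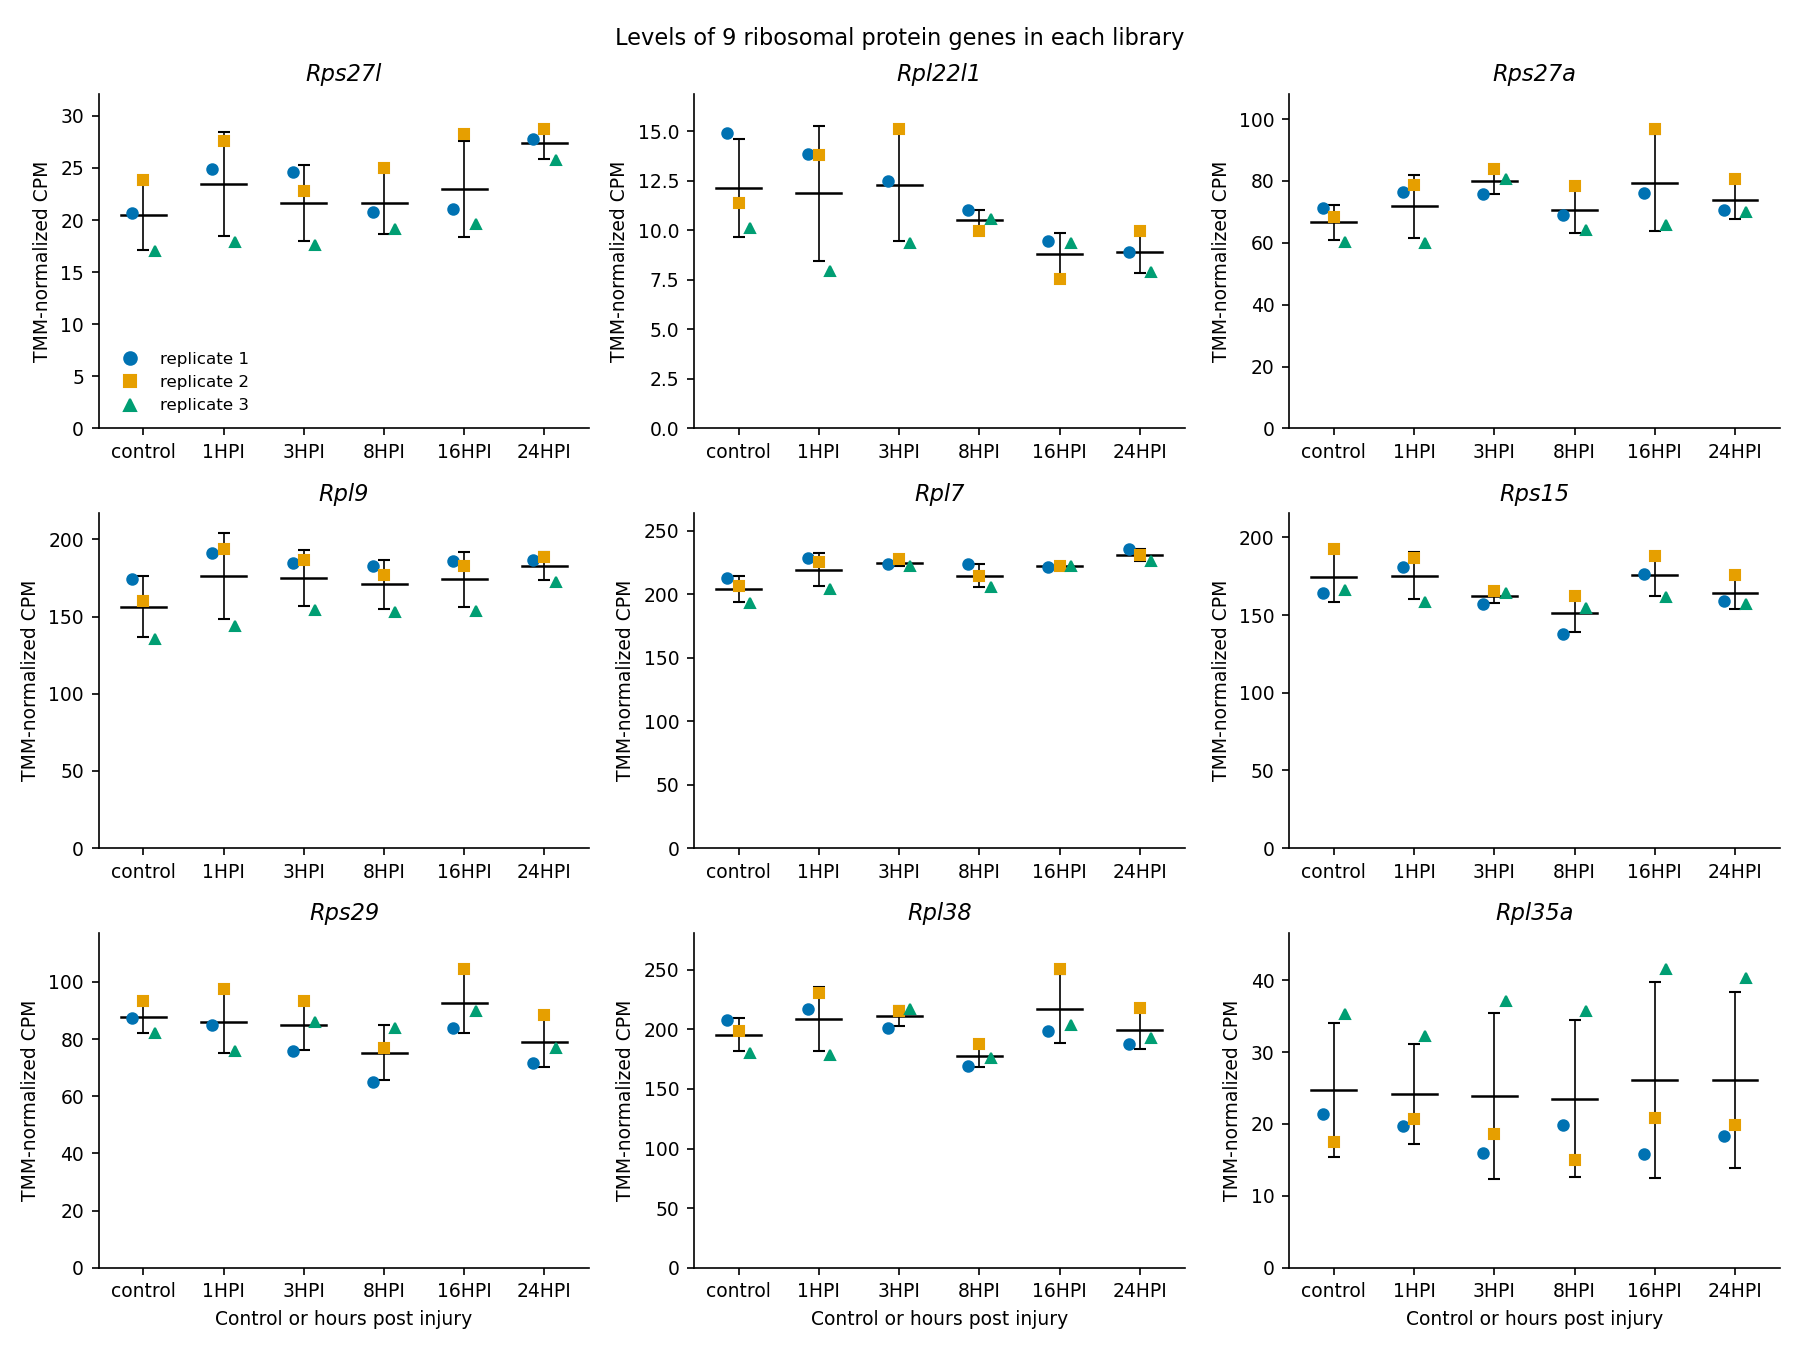
Level of 9 ribosomal protein genes in each library in TMM-normalized CPM, by group; symbols show the replicate number, long bars group means and thin bars SD (n = 3). Rps27l is highest at 24HPI, Rpl22l1 lowest at 16 and 24HPI, and Rpl35a is split by replicate number at every time.

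Rpl13a, Rpl17 and Rps7 were also among the genes that rose at 24HPI. Rpl13a, known for a role outside the ribosome in silencing inflammatory mRNAs, was at 184, 183 and 149 CPM in control and 191, 206 and 186 CPM at 24HPI. Rps7, a small subunit protein that can bind Mdm2, was at 113, 110 and 96.2 CPM in control and 120, 124 and 117 CPM at 24HPI. Both genes had injured libraries above every control, as had Rpl17, a protein of the exit tunnel.

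In log2 units the rise at 24HPI was 0.18 ± 0.06 (SE) for Rpl13a and for Rpl17 and 0.18 ± 0.05 for Rps7, with adjusted p-values of 0.0390, 0.0393 and 0.0177 by edgeR's quasi-likelihood test. These 3 calls were lost with GC and length offsets, at 0.13, 0.09 and 0.11. They were also lost without control replicate 2 (0.15, 0.15 and 0.17 in the same order), without control replicate 3 (0.16, 0.18 and 0.16) and without 24HPI replicate 3 (0.11, 0.14 and 0.14). Those of Rpl13a and Rpl17 were lost without 24HPI replicate 1 too (0.20 and 0.19). Of all tested members, 10 of the 79 genes had all 24HPI libraries above control and 1 had all below, where 8.47 and 7.92% of all genes did.

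At 8HPI only Rps15, a small subunit protein needed for export of the small subunit from the nucleus, fell. It was at 164, 192 and 166 CPM in control and 138, 162 and 155 CPM at 8HPI, and the groups did not overlap. On the log2 scale the difference was -0.20 ± 0.06 (SE), with an adjusted p of 0.0329 by edgeR's quasi-likelihood test. Leaving out control replicate 2 (-0.17) or 3 (-0.20), or 8HPI replicate 1 (-0.14) or 2 (-0.20), ended the call, as did GC and length offsets (-0.15).

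Rps15 also rose from 8 to 16HPI, to 177, 188 and 162 CPM, as did Rps26, Rps29, Rpl10a, Rpl17, Rpl27, Rpl37 and Rpl38. Rps29, a short zinc-binding protein of the small subunit, was at 65.1, 77.0 and 83.8 CPM at 8HPI and 83.8, 105 and 89.999 CPM at 16HPI. Rpl38, known from mouse mutants with skeletal patterning defects, was at 169, 188 and 176 CPM at 8HPI and 198, 251 and 203 CPM at 16HPI, without overlap. Rpl37, another short zinc-binding protein, was at 78.8, 99.8 and 86.4 CPM at 8HPI and 95.6, 127 and 100.7 CPM at 16HPI. In each of these genes every replicate number was higher at 16HPI.

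In log2 units the change from 8 to 16HPI was 0.29 for Rps29, Rpl37 and Rpl38, with SE of 0.07, 0.09 and 0.07 and adjusted p-values of 0.00986, 0.0316 and 0.00779 by edgeR's quasi-likelihood test. Rps15, Rps26, Rpl27, Rpl10a and Rpl17 lay between 0.18 and 0.21. None of the 8 genes passed against control at 16HPI, where their log2 differences were 0.01 to 0.15. Of the 8, only Rps15 had passed against control at 8HPI. The rest were also lower there, by values between -0.21 and -0.03, and did not pass.

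Most of these rises were lost without one library. Without 8HPI replicate 1, Rps29 (0.23), Rpl37 (0.25), Rps15 (0.16), Rps26 (0.15), Rpl10a (0.15), Rpl27 (0.17) and Rpl17 (0.20) no longer passed, and Rpl38 did. Without 8HPI replicate 2, Rps29 (0.24), Rps26 (0.18), Rpl27 (0.21) and Rpl17 (0.17) were lost, and without 8HPI replicate 3, Rpl37 (0.295), Rpl27 (0.20) and Rpl17 (0.18). Without 16HPI replicate 1, Rps15 (0.18), Rps26 (0.18), Rpl10a (0.15), Rpl27 (0.19) and Rpl17 (0.22) were lost, without 16HPI replicate 2, Rpl37 (0.21), Rpl38 (0.22), Rps26 (0.20) and Rpl27 (0.20), and without 16HPI replicate 3, Rpl17 (0.13) and Rpl27 (0.20).

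Rps29 fell again from 16 to 24HPI, to 71.5, 88.3 and 77.0 CPM, by 0.23 ± 0.07 (SE) on the log2 scale, with an adjusted p of 0.0441 by edgeR's quasi-likelihood test. Each 24HPI library was below the 16HPI library of the same number, but the groups overlapped. The call was lost without any of the 6 libraries of these groups, with values between -0.25 and -0.21. Rps16 (-0.26) and Rpl28 (-0.26) had larger differences there and did not pass.

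The log2 differences were also set against gene length. Across the 79 genes, the difference from control had a Spearman rho with the length of the coding transcript of 0.28, 0.18, 0.48, 0.15 and 0.36 in order of time. From 8 to 16HPI rho was -0.43 and from 16 to 24HPI 0.36. The genes share libraries, and the comparisons share control or injured groups, so these are descriptions.

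**Figure D5:**
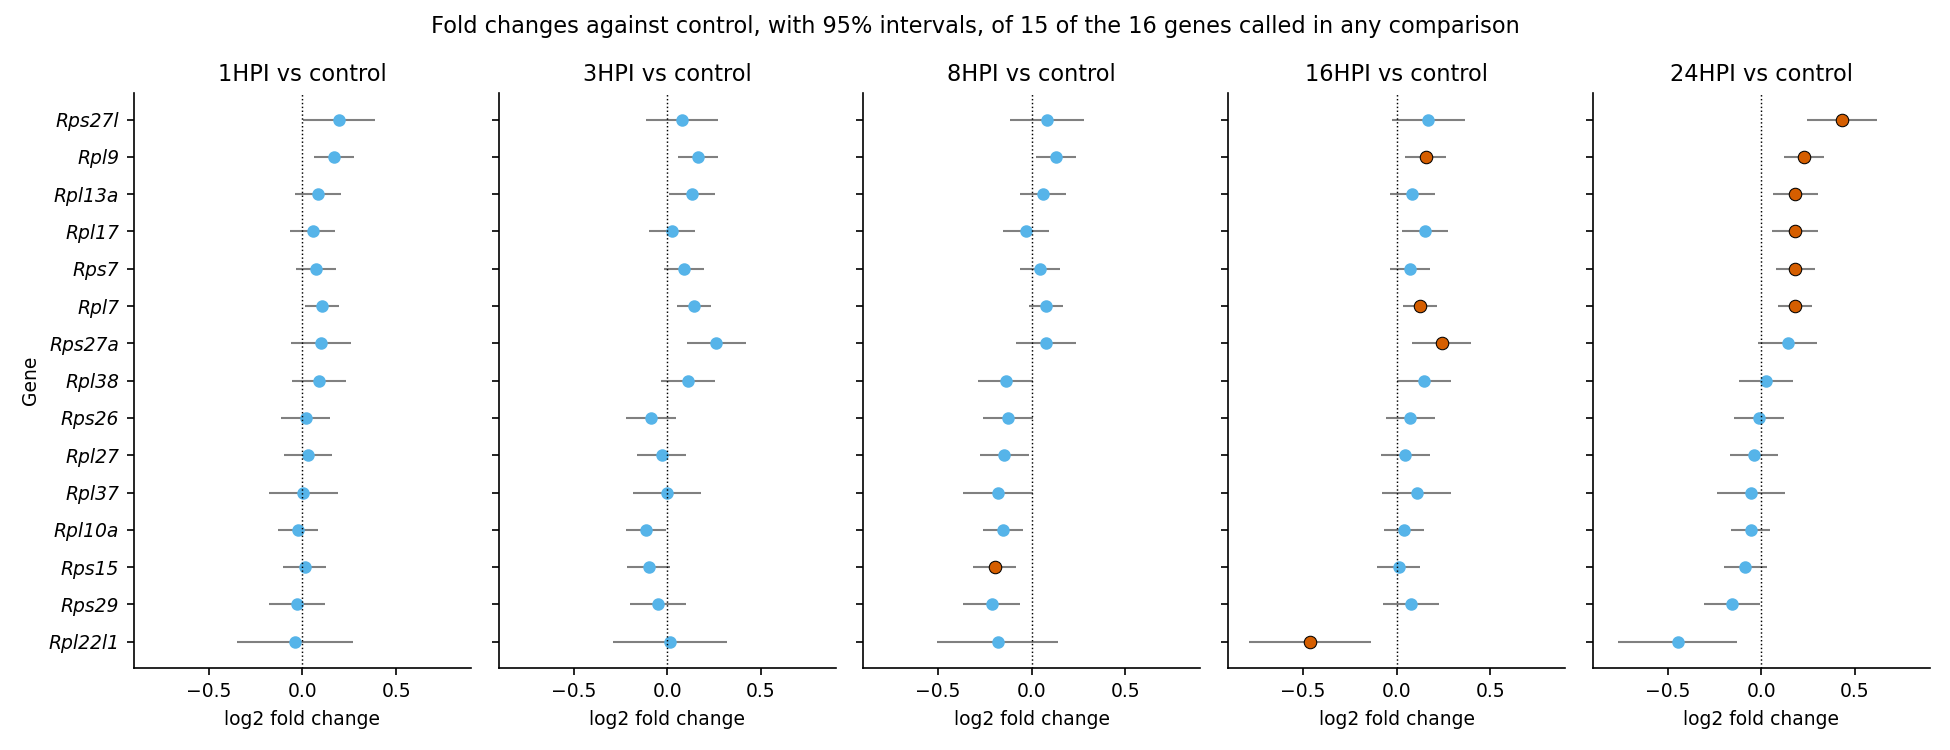
The log2 fold change against control, with 95% intervals from the edgeR fit, of 15 of the 16 ribosomal protein genes called in any comparison, at 5 times; orange points have an adjusted p under 0.05 in that comparison. Genes are ordered by the value at 24HPI, from 0.43 for Rps27l to -0.45 for Rpl22l1.

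The genes with roles beyond the subunits passed in no comparison with control, apart from Rps27a, Rpl13a and Rps7. Of the proteins that bind Mdm2 with the 5S rRNA, Rpl5 had log2 fold changes of 0.06 to 0.12, and those of Rpl11 reached at most 0.09. Rpl26, which is known to promote translation of p53 mRNA, lay between -0.07 and 0.15. Rps6 lay between -0.01 and 0.06, with 95% intervals that reached no further than -0.12 and 0.16 at any time.

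The stalk proteins are the site where translation factors dock. Rplp0, the stalk base, was at 234, 253 and 232 CPM in control and 262, 267 and 248 CPM at 24HPI, a log2 difference of 0.11 with an adjusted p of 0.0933 by edgeR's quasi-likelihood test. Rplp1 lay between -0.05 and 0.08 and Rplp2 between -0.04 and 0.11 over the 5 times. Rpsa, which doubles as a laminin receptor, had its largest value at 24HPI, 0.13 with an adjusted p of 0.0616 in the same edgeR test. Rpl10 (-0.08 to 0.05), Rps3 (-0.03 to 0.12), Rps4x (-0.01 to 0.07), Rps19 (-0.02 to 0.12) and Rpl41 (-0.07 to 0.09) did not pass at any time.

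The widest difference in the family was not one of time. Rpl35a, a large subunit protein, was at 15.8 to 21.4 CPM in the 6 libraries of replicate 1, at 14.97 to 20.9 CPM in those of replicate 2 and at 32.2 to 41.6 CPM in those of replicate 3. Each replicate 3 library, the control too, lay above every library of the other two. Its fitted log2 level differed by 1.00 between the highest and lowest replicate number and by 0.15 between the highest and lowest time. This gene was chosen after its values were seen, and no test is given.

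Other genes went the opposite way with replicate number. The mean log2 level in replicate 3 was below that of the other two by 0.42 for Rps2, 0.37 for Rpl41 and 0.34 for Rps27l. The range over replicate numbers was wider than the range over times for 48 of the 79 genes (60.8%), against 40.1% of all genes tested. Counts on pseudogenes named after the family moved with replicate number too, with 165.9 to 193 CPM in replicate 1, 204 to 229 CPM in replicate 2 and 266 to 302 CPM in replicate 3. Which source in the cultures or libraries the replicate number stands for was not tested.

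The ribosomal proteins that the name rule leaves out did not pass in any comparison. Rack1, a scaffold on the small subunit, had log2 fold changes against control of 0.04 to 0.14, Rps3a1 of 0.02 to 0.08, and Fau of -0.02 to 0.10. Of 77 tested mitochondrial ribosomal proteins, Mrps31 rose at 16HPI (0.34 ± 0.08) and 24HPI (0.36 ± 0.08, SE) and Mrps34 fell at 24HPI (-0.51 ± 0.14), and no other passed against control.

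The machinery around the ribosome was described by lists of genes, whose counts stand beside 7.68, 22.2 and 15% of all genes that passed at 8, 16 and 24HPI. Of 63 ribosome biogenesis factors tested, 5 rose and 1 fell at 8HPI, 10 rose and 4 fell at 16HPI, and 5 rose and 2 fell at 24HPI. Ddx10, an RNA helicase of small subunit assembly, rose by 0.42 ± 0.07 (SE) at 8HPI and 0.34 ± 0.07 at 16HPI, and Mdn1, a giant ATPase that remodels the large subunit, fell at all 3 times, to -0.44 ± 0.07 at 24HPI. The median of the list was 0.07 at 8 and 16HPI. None of its genes passed at 1 or 3HPI.

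Among 15 genes of RNA polymerase I and its factors, 1 rose at 8HPI and 3 at 16HPI, which were Twistnb (0.345 ± 0.09), Taf1a (0.33 ± 0.11) and Ubtf (0.17 ± 0.05, SE). None passed at 24HPI. Of 31 initiation, elongation and release factors, 4 rose and 3 fell at 16HPI. The counts of both lists stand beside 7.68, 22.2 and 15% of all genes that passed at 8, 16 and 24HPI. Eif4ebp1, the repressor of cap binding controlled by mTORC1, rose by 0.36 ± 0.08, and the scaffold genes Eif4g1 (-0.25 ± 0.05) and Eif4g3 (-0.28 ± 0.06) fell.

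Of 16 genes of the mTORC1 pathway, 4 rose and 1 fell at 8HPI, 3 rose and 4 fell at 16HPI, and 5 fell at 24HPI, with list medians of 0.02, -0.01 and -0.13. Of all genes, 7.68, 22.2 and 15% passed at these times. The stress-induced inhibitors Ddit4 (0.70 ± 0.11) and Sesn2 (0.68 ± 0.09) rose at 8HPI. The kinase gene Mtor fell by 0.41 ± 0.06 and Larp1, the TOP-binding repressor, by 0.30 ± 0.06 at 24HPI (SE). Akt1s1 (0.21 ± 0.06) and Rheb (0.20 ± 0.05) also rose at 8HPI, and Mlst8 (0.25 ± 0.08) rose at 16HPI. At 24HPI Deptor (-0.23 ± 0.05), Tsc2 (-0.25 ± 0.06) and Rptor (-0.19 ± 0.05) fell too. The list mixes inhibitors with other parts of the pathway, so its counts and medians give no direction of activity. Of 19 other mRNAs known to carry a TOP start, Gas5 and Eef1b2 rose at 16HPI, and Eif3e, Eef1b2 and Gas5 at 24HPI (0.25 ± 0.06, 0.29 ± 0.05 and 0.23 ± 0.08), with a list median of 0.05. These p-values are adjusted over all genes in the same edgeR fit. Whether any list differed from the ribosomal proteins was not tested.

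Markers of the labelled neurons and of other cells moved at the late times beside these values. Tubb3 fell by 0.37 ± 0.05 on the log2 scale at 24HPI (SE), and Isl1 and Pou4f1, transcription factors of sensory neurons, rose by 0.26 ± 0.06 and 0.20 ± 0.05. Of the 7 sensory neuron markers 2 rose and 2 fell, with a median of -0.02. They summed to 8868 to 9406 CPM in control and 8145 to 8430 CPM at 24HPI. The 9 glial markers summed to 73.2 to 132 CPM in control and 73.3 to 108 CPM at 24HPI, and 4 of them were tested. S100b fell by 0.26 ± 0.07 at 24HPI and the other 3 did not pass, with a list median of 0.76 and a highest value of 0.88. The 3 myeloid markers summed to at most 6.6 CPM in any library, with Cd68 higher, and Dcn of the fibroblast list rose 2.22 ± 0.27 from a low level, within a list sum of at most 9.98 CPM. Nes of the neural crest list rose 1.86 ± 0.45, within a list sum of at most 5.95 CPM. The 16 cell division genes summed to 37.8 to 39.9 CPM in control and 43.4 to 49.8 CPM at 24HPI, with Top2a higher. Their part in the ribosomal protein results was not tested.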

How the data were processed

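According to the study's methods, the authors trimmed paired reads with cutadapt, aligned them to the mouse genome (mm10) with STAR and counted them on GENCODE genes; the deposited values are raw counts per gene, without normalization. The paper names featureCounts and the submitters' notes HTSeq, whose 5 closing entries the tables carry. Strand setting is not given in the sources used here. Kits were Ribo-Zero Gold and SMARTer, per the labels.

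The members were 83 genes, 79 of them tested. Names, positions and lengths came from GENCODE vM21 on GRCm38, which matched 47224 of 47643 identifiers. Counts were analysed with edgeR 4.0.16 in R 4.3.3. The filter kept genes with more than 1 CPM in 3 or more of the libraries. One quasi-likelihood model on all 18 libraries had terms for time and replicate number, after TMM normalization. Tests were two-sided with Benjamini-Hochberg adjustment over all genes, called at 0.05; SE was the log2 fold change over the root of F. The number pairs the libraries: deviations from group means correlated at 0.48 or more in all 45 same-number pairs. The 90 other pairs lay at -0.04 or less. Their negative average follows from the positive pairs, because deviations within a group sum to zero, and adds nothing. DESeq2 1.42.0 and other settings served as alternatives. The scripts were tested on simulated counts.

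Named genes were, per comparison, the 5 called with the largest change in each direction that moved alike in all 3 replicate numbers, related pairs, members with known roles, the 3 highest and lowest in control and every untested member; others were chosen after their values were seen. A few items are not reported here. Members and lists were chosen with earlier results of these data known.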

Additional observations from a re-analysis of the deposited data

Results flagged for a closer look

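The change against control differed between 8 and 16HPI for the 8 genes that rose between them, since the comparison of the injured groups is the test of that difference. They were 10.1% of the 79 genes, where 15.2% of all genes passed. Most of these calls were lost when a single library was left out, and none held without the replicate block. By edgeR's quasi-likelihood test the log2 difference was 0.18 for Rpl17, 0.19 for Rpl10a and Rpl27, 0.20 for Rps26, 0.21 for Rps15, and 0.29 for Rpl37, Rpl38 and Rps29. From 16 to 24HPI the difference passed for Rps29 alone among the ribosomal protein genes, at -0.23, which is 1.27% of them, where 9.82% of all genes passed.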

How the results depend on the processing

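17 alternatives were run per comparison. No ribosomal protein gene passed 2-fold under any of them, no named change reversed, and at 3HPI each gave 0 calls. The replicate block decided the calls: without the replicate block 0 genes rose or fell in any comparison, while 0, 1, 61, 706, 153, 207 and 111 of all genes passed in the 7 comparisons. With upper-quartile factors 2 fell at 8HPI, 6 rose at 16HPI, 13 at 24HPI and 18 from 8 to 16HPI, and 0 fell from 16 to 24HPI. That scaling gave 1194 higher and 954 lower of all genes at 24HPI against 825 and 1243. At 8HPI, at 16HPI and from 16 to 24HPI, 7.75, 22.4 and 9.85% of all genes passed with it. From 8 to 16HPI it gave 1370 and 718 against 1005 and 1083. It put the median of all genes from 8 to 16HPI at 0.038, against -0.003 in the main fit. Under no scaling did the median of all genes lie more than 0.04 from zero in any comparison. With GC and length offsets and the replicate block 3 fell at 8HPI and 0 rose at 16HPI. At 24HPI 2 rose and 3 fell (Rpl22l1, -0.56, Rps29, -0.24, and Rps15, -0.16), with a median of -0.0092. Under these offsets 6.56, 23.7 and 13.2% of all genes passed at 8, 16 and 24HPI. With the 2 groups alone 1 rose at 1HPI, 0 fell at 8HPI and 0 rose at 16HPI. In that setting 2 fell at 24HPI and 2 from 16 to 24HPI. Of all genes, 3.88, 4.13, 17.2, 19.1 and 10.1% passed in the same order. A filter of 10 counts over all libraries gave 0 falls from 16 to 24HPI, where 5.05% of all genes passed. The control median was 106 RPKM over the longest transcript. As a share of protein-coding counts the summed level was 1.10 of control at both 16 and 24HPI. With one library left out, 0 to 2 genes fell at 8HPI, 0 to 8 rose and 0 to 1 fell at 16HPI, 3 to 11 rose at 24HPI, 1 to 9 rose from 8 to 16HPI, and 0 to 1 rose and 0 to 1 fell from 16 to 24HPI. The shares of all genes that passed in those refits are not given here. The cause of the differences between alternatives was not tested. Counts at the floor of 3 per library cannot show levels of the untested genes.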
